A study of Rattus norvegicus with 6 samples.

Results

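The cytosolic ribosomal protein genes were examined in skeletal muscle of newborn rats of low (LBW) and average (ABW) birth weight. Members were the array rows whose RefSeq accession belongs to a gene with a symbol that opens with Rpl or Rps and a number, with Rplp and a number, or that reads Rpsa. The kinases with symbols in Rps6k, pseudogenes and symbols that end in a locus number were left out. This gave 66 genes of the 26299 features tested, 39 of the large and 27 of the small ribosomal subunit, each with a single row. Of the 77 symbols of this kind in the RefSeq table of assembly GRCr8, without counting paralogues, 63 had a matched row. The other 14, among them *Rpl7*, *Rpl12* and *Rps9*, were not analysed here. The remaining 3 members, *Rpl17l5*, *Rpl36al1* and *Rpl37l1*, carry the suffix of a paralogue. The animals were 1-day-old male Wistar pups without any treatment, 3 in each group. By birth weight the labels place LBW pups in percentiles 5 to 25 and ABW pups in percentiles 25 to 75. The study's methods set the ABW range more narrowly. Soleus and gastrocnemius muscle were pooled for each pup, and RNA from each pup was hybridized with a single dye (Cy3) to 1 NimbleGen array. The measurement is a normalized log2 brightness per transcript, so that a step of 1 is a doubling of signal. The sources used here do not say which pups shared a litter, and p-values measure the spread between these 6 pups only.

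Each cytosolic ribosome is built from a small subunit, which reads the mRNA, and a large subunit, which joins the amino acids. Their proteins are made in near-equal numbers, and the mRNAs of most of them open with a cytosine and a run of pyrimidines (C or T in the gene), called a terminal oligopyrimidine tract. Through this tract the growth-sensing kinase mTORC1, by way of the RNA-binding protein Larp1, sets how much of each mRNA is translated, and Larp1 also protects these mRNAs from decay. Growing muscle makes ribosomes at a high rate, and ribosome number limits how much protein a fibre can make.

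The RefSeq promoter table (GRCr8) held an entry for 53 of the 66 members. A C at the annotated start followed by at least 4 pyrimidines was found in 21 of these (39.6%), against 2.63% of the 27457 promoters of the table. The same letters began within 10 bases of the annotated start in 41 members (77.4%) and in 28.8% of all promoters. The windows below show first the members described here that had an entry and lay among the 6 lowest or the 6 highest differences between the groups. *Rplp1* follows as a further example of a run that opens at the annotated start, and *Rpl35a* and *Rpl29* as examples of a run that opens before it. Each runs from 10 bases before the annotated start to the 15th base from it, 5′ to 3′ on the strand of the gene, and capitals mark the longest run of pyrimidines that opens with a C near the start.
*Rps7*, chr6:50999431-50999455, minus strand: agagctgtgtCTCTTTCTaagccgg
*Rpl21*, chr12:13386139-13386163, minus strand: ttccgccggggcagccatCTTCCag
*Rpl31*, chr9:49143101-49143125, plus strand: atccctcgcgCCTTTCCTTTCCaac
*Rpl36*, chr9:1533770-1533794, plus strand: cggccgccatcggaaagctgcaggt
*Rplp0*, chr12:46718376-46718400, minus strand: caccgcaCTTCTCTCgccaggcgtc
*Rpsa*, chr8:128728869-128728893, plus strand: ccgcgctaccctggaacgggtccgt
*Rps3*, chr1:163195762-163195786, minus strand: ttcagcggcgcgcggcagcaagatg
*Rplp1*, chr8:71290858-71290882, minus strand: cgcatgtgatCCTTTCCTCagctgc
*Rpl35a*, chr11:81235007-81235031, minus strand: tcttgCCTTCCTCTTTCCgccatct
*Rpl29*, chr8:115947633-115947657, plus strand: tttCTCTTTCTCTTCCggtcccagg
The windows of *Rpl36*, *Rpsa* and *Rps3* held no such run, which says only that these letters are not in them. The letters CCGGAAG, a core that factors of the ETS family bind, stood on either strand of the 300 bases in 16 members (30.2%) and in 9.22% of all promoters, and read on the other strand (CTTCCGG) they can overlap the pyrimidine run, as in *Rpl29*. The letters TATAAA stood in the 50 bases before the start in 3 members (5.66%) and in 2.46% of all promoters.

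No ribosomal protein gene passed a threshold between LBW and ABW pups. At an unadjusted p under 0.05 limma called 0 of 66 members, against 12.4% of all features. With a fold change of at least 1.5 added, the joint threshold that the study's methods set, it called 0 members and 4.27% of all features. After Benjamini-Hochberg adjustment over the whole table no feature passed (0.0%), with a smallest adjusted p by limma of 0.214 over all rows and 0.444 among the members. The differences, LBW mean minus ABW mean on the log2 scale, ran from -0.33 for *Rps7* to 0.21 for *Rpl36*, and 51 members differed by less than 0.1 in either direction. The median difference was -0.027 for the members and -0.023 for all features. It was -0.003 after quantile normalization and -0.04 after centring each array on its median, and without LBW 2 it turned to 0.006. Of the members, 45 had the lower mean in LBW and 21 the higher. Over all features these numbers were 14616 and 11683, that is 55.6% lower against 68.2% of the members and 64.0% of the 358 other rows as bright, which are described below.

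**Figure D1:**
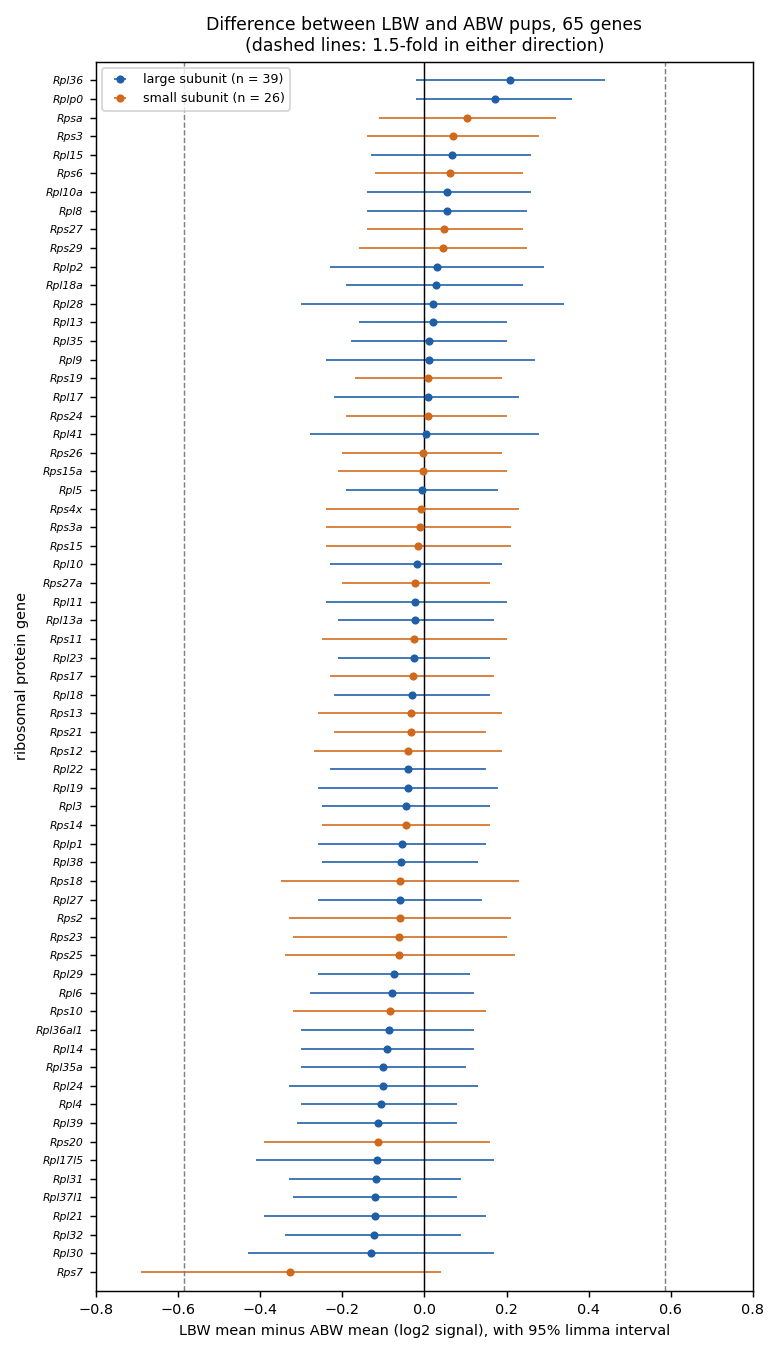
LBW mean minus ABW mean (log2 signal, x axis) for 65 of the 66 genes (y axis), with its 95% limma interval, large subunit in blue and small subunit in orange. Points run from -0.33 (Rps7) to 0.21 (Rpl36), every interval crosses 0, and that of Rps7 alone reaches past the dashed line of 1.5-fold.

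These small differences were measured with a narrow error. The 95% interval of the difference lay within 1.5-fold in either direction for 65 of 66 members (98.5%), the exception being *Rps7*, against 66.6% of all features. It lay within 1.25-fold for 51 members and for 23.7% of all features. The median spread between pups of a group was 0.0685 (SD, log2) for the members and 0.164 for all features. The members were also among the brightest rows of the array, with mean signals from 12.55 (*Rps7*) to 15.38 (*Rpl41*) and 51 of them in the brightest 1% of rows. Brightness depends on the probes as well as the transcript, so that it gives no order of amounts between genes. Whether signals so near the top of the scale were compressed was not tested, and for this family probes may also catch RNA from near-identical copies.

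Other rows as bright gave a closer comparison. There were 358 of them, with a mean signal of at least 14.2, of which limma called 4 (1.12%) at an unadjusted p under 0.05. Their interval lay within 1.5-fold for 99.2%, and their spread between pups was 0.0833. The narrow intervals of the ribosomal protein genes were therefore shared by other rows at the same brightness. When limma let the expected variance follow the signal (an intensity trend), 3 members passed an unadjusted p under 0.05, namely *Rplp0* (interval of the difference 0.04 to 0.30), *Rpl36* (0.04 to 0.38) and *Rps7* (-0.64 to -0.02). That is 4.55% of the members, against 12.4% of all features and 3.91% of the other bright rows.

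**Figure D2:**
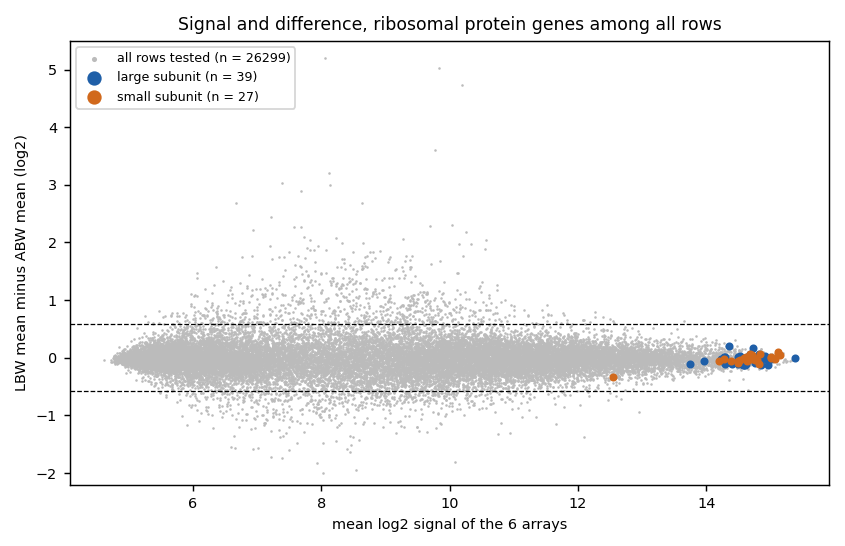
Mean log2 signal over the 6 arrays (x axis) against the LBW minus ABW difference (log2, y axis) for all 26299 features in grey, large subunit members in blue and small subunit members in orange. The members crowd at the bright end between the dashed lines of 1.5-fold, with Rps7 alone at 12.55.

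*Rps7*, a small subunit protein that takes part in processing of the small subunit's RNA, had the largest difference. Its log2 signal was 12.18, 12.32 and 12.66 in LBW pups 1, 2 and 3, and 12.57, 12.69 and 12.88 in ABW pups 1, 2 and 3. LBW 1 and 2 lay below every ABW pup, while LBW 3 lay above the lowest of them by 0.09. The LBW mean was 12.39 ± 0.246 and the ABW mean 12.71 ± 0.156 (SD, n = 3), a ratio of 0.797 (limma, adjusted p = 0.445). Its interval on the log2 scale, from -0.69 to 0.04, was the widest of the members. Without LBW 3 the difference was -0.46 and passed an unadjusted p under 0.05 with limma, whereas without LBW 1 it was -0.22 and did not. *Rps7* was also the dimmest member, at percentile 90.5 of all rows by signal.

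Among the higher members, *Rplp0* encodes the base of the P stalk, the arm of the large subunit that recruits the elongation factors. Its signal was 14.87, 14.78 and 14.78 in the LBW pups and 14.67, 14.61 and 14.64 in the ABW pups. Every LBW pup was above every ABW pup, with a difference of 0.17 (interval -0.02 to 0.36) and a ratio of 1.13 (limma, adjusted p = 0.447). *Rplp0* is widely used as a reference gene, to which other transcripts are normalized. The partners that it carries had differences of -0.06 for *Rplp1* (14.82, 14.71 and 14.84 in LBW pups, 14.79, 14.92 and 14.83 in ABW pups) and 0.03 for *Rplp2*. In both of them the groups overlapped.

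*Rpl36*, a protein of the large subunit, had the largest positive difference. Its signal was 14.58, 14.41 and 14.39 in the LBW pups and 14.20, 14.34 and 14.21 in the ABW pups. The groups did not overlap, LBW 1 stood highest, and the difference was 0.21 (interval -0.02 to 0.44), a ratio of 1.16 (limma, adjusted p = 0.444). Without LBW 1 it was 0.15. Further members in this direction were *Rpsa*, the laminin receptor protein of the small subunit, with 0.10, and *Rps3* with 0.07.

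Every LBW pup lay above every ABW pup in 5 members (7.58%), among them *Rpl36*, *Rplp0*, *Rpl15* and *Rps6*, against 7.27% of all features. Every LBW pup lay below in 5 others (7.58%), *Rpl32*, *Rpl39*, *Rpl4*, *Rpl35a* and *Rpl29*, against 10.1% of all features. Among the 358 other rows as bright, every LBW pup lay above in 12 (3.35%) and below in 28 (7.82%). The exact permutation test gives each of the 10 genes a p of 0.1, the smallest it can give for 3 against 3. All 5 lower genes belong to the large subunit, which holds 39 of the 66 members. Of the higher genes, *Rpl36*, *Rplp0* and *Rpl15* belong to it as well. The differences of *Rpl15* and *Rpl29* were 0.07 and -0.07. Of the 5 lower genes *Rpl32* had the largest difference, -0.12. It read 14.57, 14.49 and 14.55 in the LBW pups against 14.63, 14.58 and 14.78 in the ABW pups. For *Rpl4* the signal was 14.18, 14.27 and 14.26 against 14.32, 14.35 and 14.36, a difference of -0.11. The 4 genes *Rpl39*, *Rpl4*, *Rpl35a* and *Rpl29* were singled out after their values were seen. Most of the gaps between groups were small, and in *Rpl35a* the highest LBW and the lowest ABW pup were both at 14.39 when rounded.

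**Figure D3:**
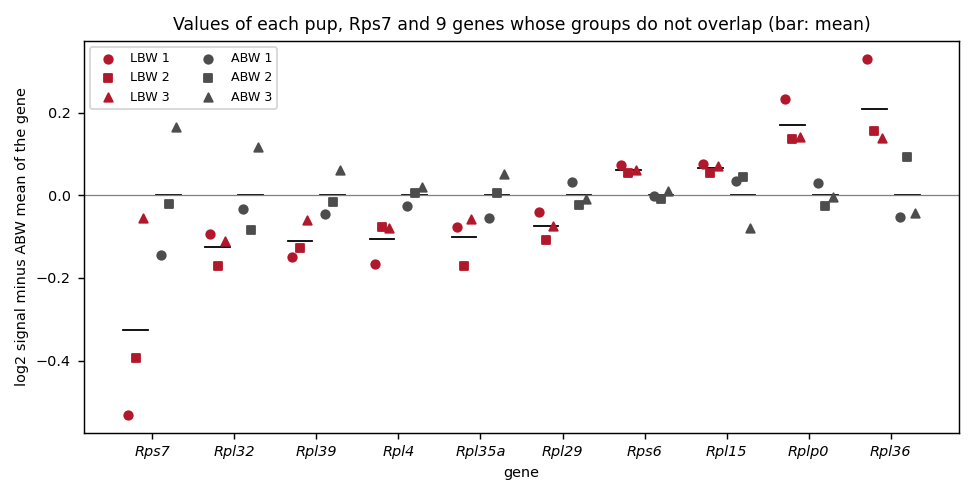
Log2 signal of each pup minus the ABW mean of the gene (y axis) for Rps7 and 9 of the 10 genes whose groups do not overlap (x axis), LBW pups in red, ABW pups in grey, bars at the group means. Rps7 has both the largest difference and the widest scatter, and its groups overlap.

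*Rps6*, whose phosphorylation by the S6 kinases is the usual readout of mTORC1 activity, was the most reproducible of the members. It read 14.72, 14.70 and 14.71 in the LBW pups and 14.64, 14.64 and 14.66 in the ABW pups, with a spread of 0.00995 (SD) between pups of a group. Its difference was 0.06 (interval -0.12 to 0.24). The methods' test, which takes each gene's own spread, called it at an unadjusted p under 0.05, together with *Rplp0*, *Rpl4* and *Rpl29*, while limma, which draws the spread of each gene toward that of all genes, called none of the 4. *Rpl13* (SD 0.0159, difference 0.02) and *Rps27a* (SD 0.0214) followed in reproducibility. The widest spreads were those of *Rps7* (0.206), *Rpl28* (0.17) and *Rpl30* (0.153). In *Rpl28* LBW 2 (14.34) and ABW 2 (14.32) lay apart from the other 4 pups, which read from 14.57 to 14.66, and the group means differed by 0.02.

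Members were also read by roles outside the ribosome, by a link to disease and by their place in the ribosome. *Rpl5* and *Rpl11*, which with the 5S ribosomal RNA bind Mdm2 and raise p53 when ribosome assembly fails, had differences of -0.01 and -0.02. *Rps27a*, made as a fusion with ubiquitin, read 15.07, 15.05 and 15.03 in the LBW pups and 15.06, 15.10 and 15.07 in the ABW pups, a difference of -0.02. Of the 9 genes listed as mutated in Diamond-Blackfan anaemia, an inherited failure of red cell formation, 2 were higher and 7 lower in LBW by their means, with a median difference of -0.022. *Rps7* (-0.33), with the largest difference of all members, is 1 of these 9, and *Rpl35a* (-0.10) another. Around the exit of the peptide tunnel 7 of 9 listed genes had a row, with a median of -0.041. Of these, *Rpl31* (-0.12) and *Rpl39* (-0.11) were the lowest.

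The 3 paralogues were all lower in LBW by their means, with -0.12 for *Rpl37l1* and *Rpl17l5* and -0.09 for *Rpl36al1*, and none passed the test. Their probes may not tell them from the genes they resemble. *Rpl30* (-0.13) and *Rpl21* (-0.12) completed the 6 lowest differences, and in both the groups overlapped. The 41 members whose differences are not given singly lay between -0.11 and 0.07, 29 lower and 12 higher in LBW by their means, and none passed the test.

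The median difference was -0.039 for the large and -0.022 for the small subunit, a gap of -0.017. Pup by pup, the median deviation of the large minus that of the small subunit was -0.040, 0.004 and -0.019 in the LBW pups and 0.016, 0.038 and 0.016 in the ABW pups. All LBW pups lay below all ABW pups in this quantity, with means of -0.018 and 0.023, a difference of -0.041 where the spread between pups of a group was 0.0181 (SD). Taken this way the difference was larger than the gap of -0.017 between the subunits' medians. It was described without a test, and for 3 against 3 an exact permutation test cannot give a p below 0.1. The gap of -0.017 moved to -0.002 without LBW 1 and to -0.041 without LBW 2, and turned to 0.004 among the 15 members outside the brightest 1% of rows. Without the 3 paralogues, which all belong to the large subunit, it was -0.006.

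The members differed more between single pups than between the groups. Set against each gene's mean over the 6 pups, the median member deviated by -0.015, -0.07 and 0.038 in LBW pups 1, 2 and 3, and by 0.009, -0.016 and 0.04 in the ABW pups. In both groups pup 3 was thus the highest and pup 2 the lowest. The top signal of any row was also lowest on the arrays of LBW 2 (15.178) and ABW 2 (15.31). Whether same-numbered pups shared a step of the work was not tested. LBW 2 was the lowest of the 6 pups in 33 members (50.0%), which compares with 35.8% of the other bright rows and 14.0% of all features. ABW 3 was the highest in 24 members (36.4%), against 26.5% of the other bright rows and 23.2% of all features. The low position of LBW 2 was seen in both subunits, in 18 of 39 large and 15 of 27 small subunit genes. Without LBW 2, 32 of 66 members were lower in LBW by their means, and without LBW 3, 53 were.

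**Figure D4:**
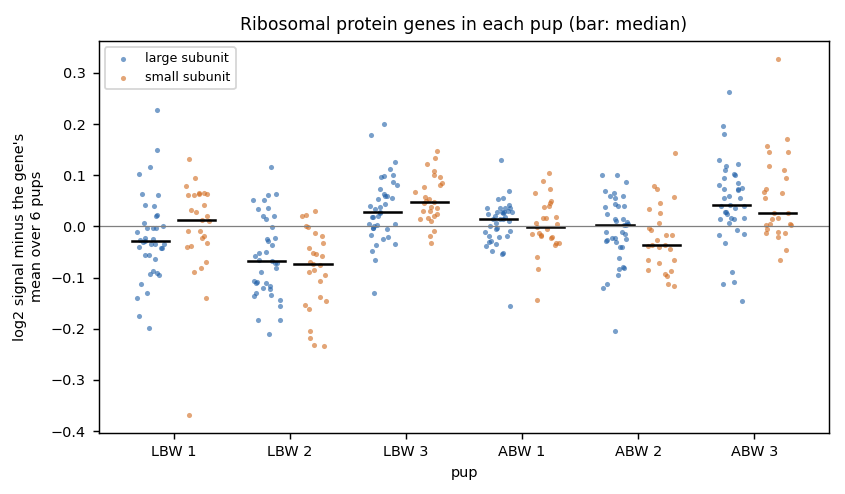
Log2 signal of each member minus its own mean over the 6 pups (y axis) in each pup (x axis), large subunit in blue, small subunit in orange, bars at the medians. LBW 2 lies lowest (median -0.07 over all members) and LBW 3 and ABW 3 highest (0.038 and 0.04), so that the order of the pups does not follow the groups. Over all members, pup 3 has the highest and pup 2 the lowest median in each group.

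The same pups also differed in markers of other tissues, measured in the same RNA. The mean log2 signal of 9 bone markers (of 11 listed) was 11.33, 8.95 and 12.30 in LBW pups 1, 2 and 3 and 8.20, 8.36 and 8.55 in the ABW pups, and 5 of them passed an unadjusted p under 0.05 upward. *Spp1*, the bone marker with the largest difference, read 13.03, 9.78 and 14.24 in the LBW pups and 7.18 to 7.52 in the ABW pups. *Dmp1*, *Sp7* and *Mepe* had the higher mean in LBW without passing that p, and *Col1a2* had the lower (difference -0.17). Markers of neutrophil precursors (5 of 10 with a row) averaged 9.35 to 10.34 in LBW against 8.40 to 8.63 in ABW pups. Of these 5, *S100a9*, *S100a8* and *Mmp8* passed an unadjusted p under 0.05 upward by limma. The other markers, *Lcn2* (difference 0.12) and *Prtn3* (-0.07), did not pass. Adipocyte markers (8 of 9) averaged 10.23 to 11.23 in LBW against 11.09 to 12.17 in ABW pups. Cell cycle genes (7 of 14) averaged 11.95 to 12.12 in LBW against 12.28 to 12.40 in ABW pups, 4 of them lower at an unadjusted p under 0.05. Their part in the ribosomal protein values was not tested. The 10 skeletal muscle markers with a row, of 16 listed, averaged 14.27 to 14.33 in LBW and 14.24 to 14.33 in ABW pups, at the bright end of the scale in every pup. In such bulk RNA, fewer cells of a type and less RNA per cell cannot be told apart.

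The members with a pyrimidine run at the annotated start, 21 genes, had a median difference of -0.019 (from -0.33 to 0.17), and the 32 without one had -0.028 (from -0.12 to 0.21). Carriers of the run were found at both ends, with *Rps7* and *Rpl31* on the lower and *Rplp0* on the higher side, as the windows above show.

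The rest of the machinery that makes and drives ribosomes was followed with lists of genes, and a few of its genes passed an unadjusted p under 0.05, as 12.4% of all features did, while none passed after adjustment. Among other proteins of the cytosolic ribosome, the differences were 0.09 for *Fau* and 0.03 for *Rack1*. Of 24 mitochondrial ribosomal proteins with a row (of 75 listed), 1 passed upward and 1 downward at that p (8.33%). The first was *Mrpl38*, at 10.52, 10.5 and 10.23 in the LBW pups and 9.72, 10.03 and 9.77 in the ABW pups, 1.5 times as high (limma, adjusted p = 0.254). The other was *Mrpl47*, with a ratio of 0.84.

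Among 32 ribosome biogenesis factors (of 54 listed), 2 passed upward and 1 downward (9.38%). *Dkc1*, the enzyme that converts uridine to pseudouridine in ribosomal RNA, read 10.98, 10.93 and 10.62 in the LBW pups and 10.53, 10.36 and 10.32 in the ABW pups, a ratio of 1.36 that did not pass after adjustment. *Ppan*, needed for maturation of the large subunit, had a ratio of 1.24. *Ltv1*, an assembly factor of the small subunit, had a ratio of 0.853. RNA polymerases I and III transcribe the ribosomal and transfer RNAs. The list of their subunits and initiation factors had 13 of 35 genes with a row. Of these, 0 passed by limma and 11 had the lower mean in LBW (84.6%, against 55.6% of all features), with a median difference of -0.115. The 2 with the higher mean were initiation factors. The largest difference in the list was that of *Polr1a*, the catalytic subunit of polymerase I, at -0.42 (interval -0.96 to 0.12).

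Of 22 translation initiation factors (of 39 listed) 0 passed by limma, with a median of 0.019. Of 9 elongation factors (of 14) only *Eef2k* passed (11.1%), the kinase that inhibits elongation factor 2, with a ratio of 1.19. In the list of mTORC1 and Myc control, 16 of 28 genes had a row, and 2 passed in each direction (25.0%). *Rps6ka1*, a kinase that phosphorylates *Rps6* downstream of ERK, read 8.36, 8.55 and 8.43 in the LBW pups and 8.86, 9.17 and 9.39 in the ABW pups. Its groups did not overlap, and its ratio of 0.617 passed the joint threshold of p and fold change (limma, adjusted p = 0.25). *Mycn* had a ratio of 0.854, while *Myc*, which activates ribosomal protein genes, had 1.22 and *Gabpb1*, a partner of an ETS factor, 1.27.

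**Figure D5:**
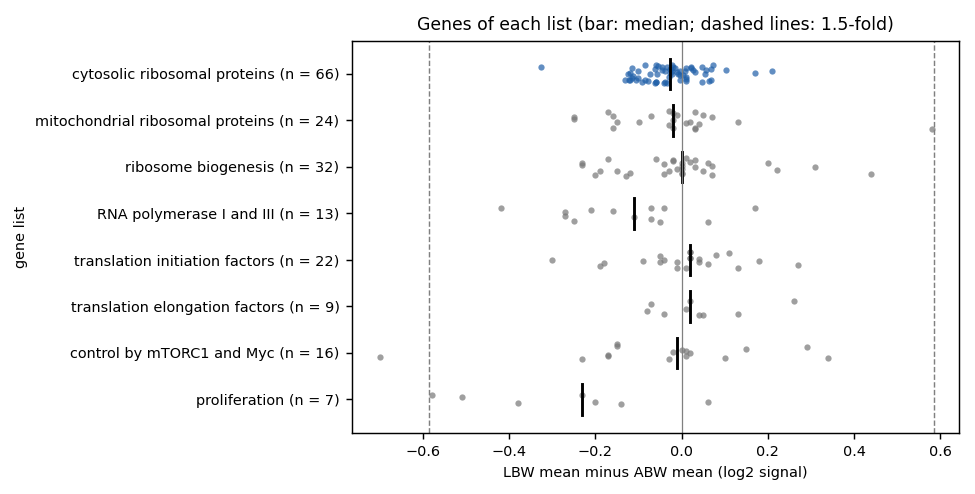
LBW minus ABW difference (log2 signal, x axis) of each gene in 8 lists (y axis), with a bar at the median and dashed lines at 1.5-fold. The 66 ribosomal protein genes cluster around -0.027, while single genes of the other lists, such as Rps6ka1 at -0.70, reach farther.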

How the data were processed

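The authors deposited normalized log2 values, 1 column per array, for 26419 transcripts of 5 probes each. They used in-house R scripts and Bioconductor, and the submitters' processing notes name RMA without a version. The array design follows RGSC3.4, and no coordinates were taken from it. Rows were named through a RefSeq gene table (GRCr8), which matched 9747 rows (36.9%), and rows of a symbol were averaged, leaving 26299 features.

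Group means were compared with limma 3.58.1 (R 4.3.3; functions lmFit and eBayes, 2-sided, no trend), with Benjamini-Hochberg adjustment over all features and 95% intervals from the same fit. The joint threshold of the study's methods asks for at least 1.5-fold beside an unadjusted p under 0.05. The scripts were tested on simulated data. Arrays carry no read depth, and 3 pups per group limit the precision. After each feature's group mean was subtracted, the deviations left in same-numbered pups correlated over all features by 0.087, 0.104 and 0.055 (Pearson). The pups were not taken as pairs.

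The genes named are the 6 largest differences in each direction, the P stalk, *Rpl5*, *Rpl11*, *Rps27a*, the paralogues, the 3 smallest and 3 largest spreads, and at most 3 genes of smallest p per list, beside those said to be singled out. A few items within this rule are not reported here. Members and lists were chosen with earlier results of these data known. Promoters are the first entry of each gene in a RefSeq table (27457 genes, 250 bases before to 50 after the start). Alternatives were quantile normalization, median centring, an intensity trend, robust variance, array weights, the methods' test, a block for the replicate number, omission of single pups, of dim or of bright rows, unaveraged rows, a 2-fold threshold, and members without paralogues or with NM accessions only.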

Additional observations from a re-analysis of the deposited data

How the results depend on the processing

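The count of members at an unadjusted p under 0.05 was 0 with limma and rose to 1 after quantile normalization (*Rplp0*), 2 with array weights (*Rplp0* and *Rps7*), 3 with an intensity trend and 4 with the methods' test. With the replicate number as a block it was 1 (*Rps7*). Leaving out 1 pup at a time gave 0 to 2, the 2 (*Rps7* and *Rpl17l5*) without LBW 3. Of all features, 12.5% passed that p after quantile normalization, 12.4% with the trend, 9.51% with the methods' test and 13.4% with the block. With array weights the share of all features was larger still. The share of members called, at most 4 of 66, was below that of all features in each of these settings. No member passed the joint threshold of p and fold change or an adjusted p under 0.05 under any of these alternatives. Without LBW 2, 125 of all features passed after adjustment, and none of them was a member. The gap between the subunits was -0.041 to -0.002 with 1 pup left out, 0.004 without the brightest 1% of rows and -0.006 without the paralogues. The count of members whose groups do not overlap, 10 of 66, was 4 of 15 without the brightest rows. Over all features every LBW pup lay above every ABW pup in 7.27% and below in 10.1%. With only 15 members, no separation is read from the 4. The count of members was 13 to 25 with 1 pup left out, where fewer values have to be apart. The matching share of all features with a pup left out is not given here, so that no separation of the members is read from these counts. The 17 genes followed singly were compared over the 9 settings that change the differences themselves. These were quantile normalization, median centring, array weights and each pup left out. All 153 values kept their sign, and none reached that joint threshold. The genes were chosen on the same values, for the largest differences in each direction or for groups that do not overlap. For the 10 whose groups do not overlap, leaving out 1 pup cannot reverse the sign. The kept signs are therefore no independent evidence of stability. The cause of the changes between settings was not tested. The deposited values give no background signal, so that how far the brightest rows were from saturation is unknown here.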
